A study of Mus musculus with 4 samples.

Results

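miR-191 and miR-425 are neighbouring microRNAs (miRNAs) whose precursors lie on the same strand of mouse chromosome 9. The 4 rows of the deposited small RNA table that name an arm of either precursor, mmu-miR-191-5p, mmu-miR-191-3p, mmu-miR-425-5p and mmu-miR-425-3p, were taken by name out of 1038 known miRNAs. The small RNA was sequenced from the medial prefrontal cortices of mice, C57BL/6 in the labels and juvenile male C57BL/6J in the study's methods, in 2 libraries of control mice and 2 libraries of mice under chronic unpredictable mild stress (CUMS). CUMS mice went through varied stressors for 3 weeks, among them social isolation, restraint, tilted or damp cages and disturbed light cycles, and control mice lived without them. The mice were juvenile at the start, and tissue came after a week of adaptation, 3 weeks of stress or none, and behavior tests. Tissue was taken from stressed mice that showed depression-like behavior in the tests, so the CUMS group stands for affected animals and not for all stressed ones. RNA was isolated mouse by mouse, and the sources used here do not say whether a library held RNA of more than 1 mouse.

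A miRNA is cut as a hairpin from a longer primary transcript and then trimmed to a short duplex, of which one strand, the guide, is loaded into an Argonaute protein and the other, the passenger, is mostly lost. The arms are named 5p and 3p after the side of the hairpin they come from. The guide finds messenger RNAs mainly through its seed, bases 2 to 8 from its 5′ end. miR-191 is abundant in many tissues and is widely used as a reference in miRNA assays, and in neurons it has been linked to the remodelling of dendritic spines and to repression of the growth factor BDNF.

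The mature sequences from RefSeq (GRCm38.p6) are shown because the 4 arms differ in seed, and because one seed is found in a further mouse miRNA. They are written 5′ to 3′ with the seed in capitals.
miR-191-5p: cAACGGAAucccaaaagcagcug
miR-191-3p: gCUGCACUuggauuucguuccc
miR-425-5p: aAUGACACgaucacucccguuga
miR-425-3p: aUCGGGAAugucguguccgcc
miR-489-3p: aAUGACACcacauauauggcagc

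Of the 1038 names in the table, 884 were found among the 1679 mature names of the RefSeq table, the 4 arms included. The arms share no seed with each other. The longest run of bases common to miR-191-5p and miR-425-5p was 4 bases. miR-425-5p has the seed of miR-489-3p, with 8 bases in common from the first base on, while the other 3 arms share their seed with none of the mature miRNAs in the RefSeq table. miR-489-3p was almost absent from this cortex, with 5 and 2 reads in controls and 1 and 0 reads under CUMS, where a count of 0 allows up to 3 reads. Among the miRNAs matched by name, nearly all reads with this seed were those of miR-425-5p.

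The miR-191 precursor of 74 bases lies at chr9:108568319-108568392 and the miR-425 precursor of 85 bases at chr9:108568777-108568861, both on the + strand, with 384 bases between them. Annotations do not give them the same host. In RefSeq the Dalrd3 gene, which encodes a protein that acts in tRNA methylation, runs from 108567484 to 108572773 on chromosome 9 and holds both precursors. In GENCODE M21 Dalrd3 starts at 108569886, which leaves 1024 bases between the end of the miR-425 precursor and the gene. There both precursors lie within the long exon of a long noncoding RNA, 4833445I07Rik-201, from 108567533 to 108569174. In its spliced isoform 4833445I07Rik-202 the miR-191 precursor falls in the intron, and the last exon ends at 108568774, just before the miR-425 precursor. A further miRNA gene, Gm24083, is annotated on the opposite strand over miR-191. Host transcripts were not analysed here, so which of them carries the precursors in this cortex was not tested.

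**Figure D1:**
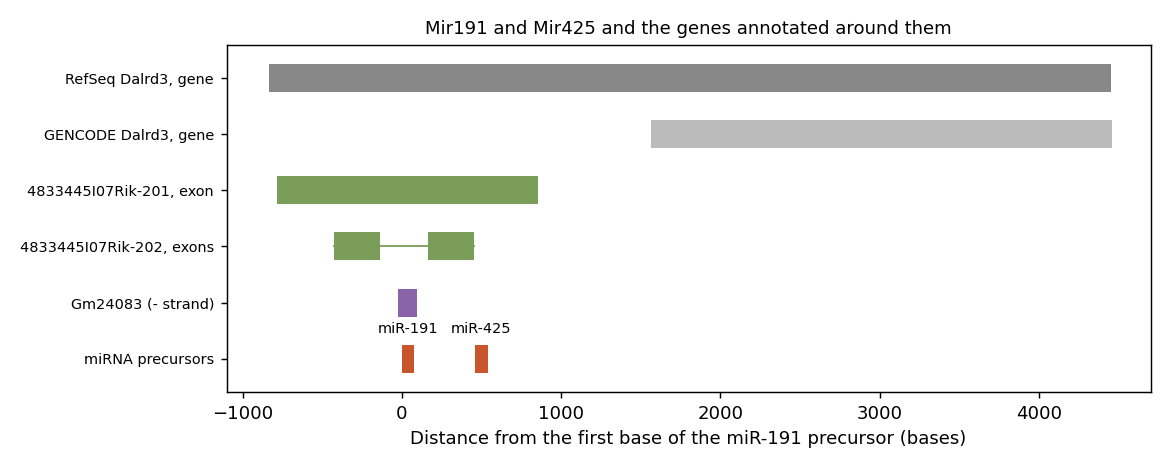
Genes around the miR-191 and miR-425 precursors, drawn by their distance in bases from the first base of miR-191. Each bar is a gene or exon as labelled, and the thin line is an intron. The precursors lie inside Dalrd3 of RefSeq but before Dalrd3 of GENCODE M21, where they fall in the noncoding 4833445I07Rik.

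The deposited table gives the mean normalised reads of each group, and the whole reads of single libraries were recovered from these means. Within each group the libraries are named a and b, since the means do not tell their numbers. Their counts over all known miRNAs summed to between 9589323 and 10783592 reads. Reads counted under several names, as for miR-199a-3p and miR-199b-3p with equal counts, enter these totals more than once. Shares of all miRNA reads rest on these totals. A normalised read is a read divided by the size factor of its library, between 0.944 and 1.06. Control library b stood apart, with 9.32% of its reads on the 14 arms of the miR-182, miR-183, miR-96, miR-200, miR-141 and miR-429 genes of epithelial and sensory tissue, against 0.0393% to 0.0722% in the other libraries. The 5 markers of cortical neurons, such as miR-124-3p, were detected in all libraries, with summed levels of 722890 to 849750 normalised reads in control and 813206 to 958845 in CUMS. Summed levels also overlapped between groups for the 3 markers of red blood cells (115169 to 119742 in control, 114587 to 135230 in CUMS), for the 4 of leukocytes (4072 to 4773 and 3918 to 5387) and for the 2 of endothelium (12754 to 13692 and 13020 to 14763). They were lower in both CUMS libraries for the 2 markers of oligodendrocytes (7693 to 8173 in control, 6011 to 7154 in CUMS), the 2 of choroid plexus and pigment cells (16941 to 22015 and 12627 to 15959) and the 2 of 3 muscle markers in the table (226 to 348 and 194 to 197). The 8 epithelial and olfactory markers ran from 4047 to 1004812 in control and from 4936 to 7329 in CUMS, with 2 of them at 0 in a library. The liver marker miR-122-5p had 0 reads in control and 1 read in each CUMS library. Some sums rested on a single marker. The choroid plexus sum was almost all miR-204-5p and the muscle sum almost all miR-133a-3p. Their partners miR-211-5p and miR-1a-3p overlapped between groups. Both oligodendrocyte markers, miR-219a-2-3p and miR-338-3p, were lower in both CUMS libraries. The red blood cell sum was almost all miR-486a-5p. Taken by themselves, the endothelial marker miR-126a-3p and the leukocyte marker miR-142a-3p were lower in both CUMS libraries. The neuronal marker miR-124-3p was higher in both CUMS libraries than in both control libraries. The overlapping neuronal sum does not show this, since most of it was miR-9-5p. The part of these differences in the levels of miR-191 and miR-425 was not tested, and in whole tissue fewer cells of a type cannot be told apart from less RNA per cell.

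All 4 arms were detected in every library, and their levels spanned more than 3 orders of magnitude. A read did not have to cover the whole mature miRNA to be counted, and levels were not divided by the lengths of 21 to 23 bases. Sequences can also differ in how well adaptors are ligated to them. Effects of length and ligation on these levels were not tested. miR-191-5p was the main product of the locus. Its reads numbered 86013 in control library a, 87544 in control library b, 103580 in CUMS library a and 100526 in CUMS library b, between 0.812% and 1.05% of all miRNA reads. By mean normalised reads it took place 24 of 1038. miR-425-5p, the guide arm of the neighbour, was read 750 and 836 times in the controls against 929 and 812 times under CUMS (libraries a and b, always in this order) and took place 182. The passenger arm miR-191-3p had 132 and 143 reads in the controls against 152 and 136 under CUMS, at place 288. The lowest was miR-425-3p with 57 and 43 reads in the controls against 42 and 67 under CUMS, at place 355.

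The comparison of CUMS with control asked whether the locus changed with the stress. The mean of miR-191-5p was 1.19-fold higher in CUMS, but none of the 4 arms passed a test, and their folds of 1.06 to 1.19 were all below the 1.5 that the study required. Of the 628 miRNAs with a mean of at least 5 normalised reads in a group, 25.6% were past 1.5-fold, 11.9% with CUMS higher and 13.7% with CUMS lower. Of the 372 with a mean of at least 50 normalised reads in a group, to which all 4 arms belong, 7.8% were past 1.5-fold. The group means came to 85821 ± 2387 normalised reads in control and 102018 ± 6351 in CUMS for miR-191-5p (SD, n = 2 libraries in each group). Single control libraries had 84133 and 87509 normalised reads, and single CUMS libraries 97527 and 106509. Both CUMS libraries were thus above both control libraries, and the gap was wider than the difference between the libraries of either group. The exact Poisson intervals at 95%, which cover counting error only, did not overlap between any of the 4 libraries, so counting error is small here and the spread between libraries sets the precision.

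miR-425-5p had 784.6 ± 72.2 normalised reads in control and 867.5 ± 10.2 in CUMS. Its single values were 733.6 and 835.7 for the controls against 874.7 and 860.3 under CUMS. The CUMS libraries were again above both control libraries, but control library b came close to them and its Poisson interval, 780.0 to 894.3, overlapped with theirs. For miR-191-3p the controls had 129.1 and 142.9 against 143.1 and 144.1 under CUMS, so that control library b was almost level with both CUMS libraries, and the intervals of all libraries overlapped. For miR-425-3p the controls, at 55.8 and 43.0, lay between the CUMS values of 39.5 and 71.0. The CUMS libraries of this arm differed from each other by more than counting error, with intervals of 28.5 to 53.5 and 55.0 to 90.2.

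**Figure D2:**
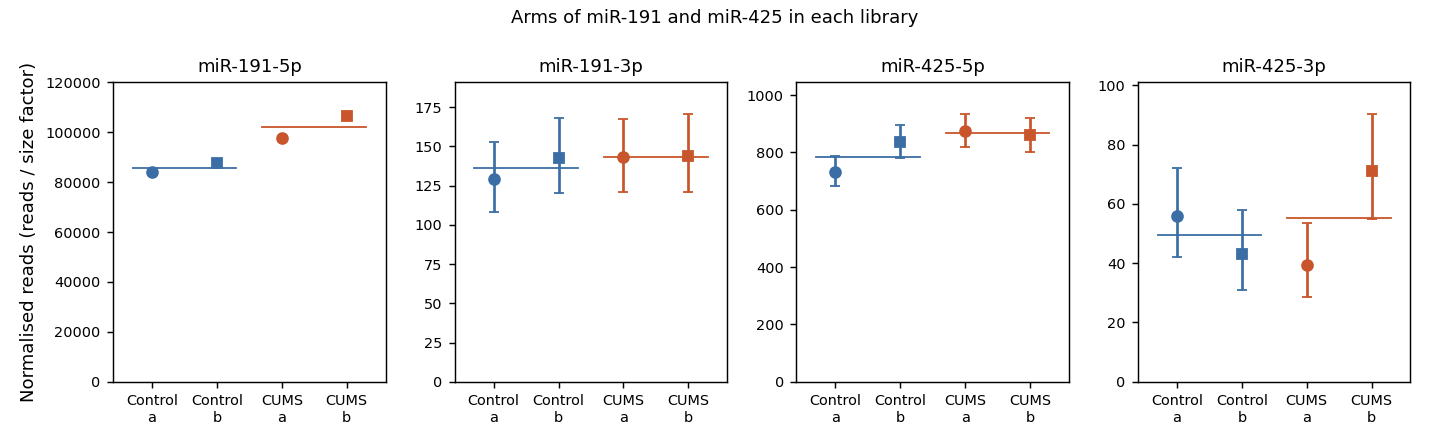
Normalised reads (reads divided by the size factor, linear axes from 0) of the 4 arms in control and CUMS libraries a and b. Points are libraries with exact Poisson intervals at 95%, and lines are group means. The CUMS points of miR-191-5p, 97527 and 106509, lie above the control points, 84133 and 87509, while the points of miR-425-3p overlap.

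The CUMS libraries were above the control libraries for 3 of the 4 arms, an order that 16.7% of the 719 miRNAs that reached 5 reads in any library had, and 17.7% of the 158 with at least 1000 reads in every library. The opposite order, with CUMS below, was found for 0 of the 4 arms and 17.1% of the 719. These arms come from the same locus and the same libraries, so they are not separate observations. The two-sided exact permutation test over libraries gave p = 0.333 for each of the 3, the smallest value that 2 libraries against 2 allow, and p = 1 for miR-425-3p. Over the 8 such tests made on arms and ratios, the adjusted p was 0.667 or 1.

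On the recovered reads, the edgeR quasi-likelihood test gave miR-191-5p a log2 fold change of 0.21 (adjusted p = 0.849). The DESeq2 Wald test gave 0.25 with a standard error of 0.17 and a 95% interval from -0.09 to 0.59, which holds both no change and 1.5-fold. For miR-425-5p the DESeq2 interval ran from -0.27 to 0.56, for miR-191-3p from -0.60 to 0.76 and for miR-425-3p from -0.93 to 1.25. The adjusted p of the 4 arms lay between 0.849 and 0.972 by edgeR and was 0.999 by DESeq2. Of all 719 miRNAs in the edgeR test, 0% had an adjusted p under 0.05 and 4.17% an unadjusted p under 0.05, and DESeq2 also called 0 miRNAs. Among the 158 miRNAs with at least 1000 reads in every library, the median log2 ratio of CUMS to control was 0.02 and its median absolute value 0.12, and 12 had a larger ratio than the 0.25 of miR-191-5p.

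Since control library b stood apart, the ratios were also taken without it. The log2 ratio of CUMS to control was then 0.28 for miR-191-5p, 0.24 for miR-425-5p, 0.15 for miR-191-3p and -0.013 for miR-425-3p. With all libraries it was 0.25, 0.14, 0.08 and 0.16 for these arms. With each library scaled to its miRNA reads outside the 14 epithelial arms, both CUMS libraries remained above both control libraries for miR-191-5p, at 9938 and 10491 CPM (reads at a fixed library total) against 8169 and 8953, and the groups overlapped for the other 3 arms.

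Ratios within a library do not depend on scaling between libraries. The hairpins differed widely in how unequal their arms were. For miR-191, the 5p arm had 652 and 612 times the reads of the 3p arm in the controls against 681 and 739 times under CUMS. Thus the 3p arm made up 0.135% to 0.163% of the reads of both arms. For miR-425, the 5p arm had 13.2 and 19.4 times the reads of the 3p arm in the controls against 22.1 and 12.1 times under CUMS. Its 3p share ran from 4.33% (95% Wilson interval 3.22% to 5.80%) in CUMS library a to 7.62% (6.05% to 9.57%) in CUMS library b.

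The log2 ratio of 5p to 3p was higher for miR-191 than for miR-425 in 4 of 4 libraries, by 5.37 ± 0.49 (SD, n = 4 libraries) or 41.4-fold. The exact permutation test within libraries gave p = 0.125, the smallest it allows. Among 138 miRNA names with both arms at 5 or more reads in every library, the median imbalance was 9.25-fold in either direction. Of these, 14 had more unequal arms than miR-191 and 60 had more unequal arms than miR-425. Between groups, the log2 ratio of miR-191-5p to miR-191-3p was 9.30 in control and 9.47 in CUMS. Neither CUMS library reached down to a control library, though the Wilson intervals overlapped. The exact permutation test between groups gave p = 0.333 (adjusted p = 0.667), the smallest it allows. How many of the 138 names had such an order was not counted. For miR-425 the log2 ratio of 5p to 3p was 4.00 in control and 4.03 in CUMS, within the spread between libraries.

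**Figure D3:**
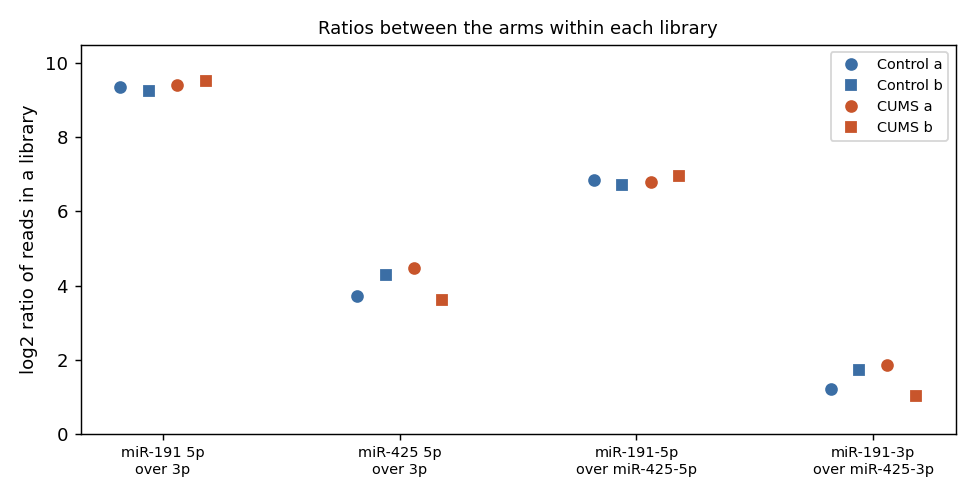
log2 ratio of the reads of 2 arms within each library, for 4 pairs of arms. Points are control and CUMS libraries a and b. miR-191 stands near 9.39 and miR-425 near 3.98 for 5p over 3p, and the guide arms differ by more than the passenger arms.

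The guide arms of the neighbours differed far more than their passenger arms. miR-191-5p had 115 and 105 times the reads of miR-425-5p in the controls against 111 and 124 times under CUMS. The 3p arm of miR-191 had 2.32 and 3.33 times the reads of that of miR-425 in the controls against 3.62 and 2.03 times under CUMS. This is the same contrast as the one between the hairpins and is no separate test. The log2 ratio of miR-191-5p to miR-425-5p was 6.78 in control and 6.88 in CUMS, with overlapping groups (exact permutation p = 0.667), and it ranged over 0.24 across the 4 libraries.

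This ratio was set beside those of other miRNAs that are known to share a primary transcript. Of 15 such pairs, 14 had reads of both miRNAs in every library. The range of the log2 ratio over libraries was 0.11 for miR-132-3p and miR-212-3p, 0.24 for miR-23b-3p and miR-27b-3p, 0.67 for miR-221-3p and miR-222-3p, and 0.98 for miR-144-3p and miR-451a, with a median of 0.50. The pair of miR-191-5p and miR-425-5p took place 5 from the narrowest range. In the difference between its miRNAs it took place 5 from the widest, 114-fold against a median of 5.63-fold. The pair of miR-23b-3p and miR-27b-3p was much like it, with a difference of 122-fold and a range of 0.24. The most unequal pair was miR-143-3p and miR-145a-5p at 1521-fold. Counting error alone widens the range of pairs with few reads, and some of these miRNAs, such as miR-16-5p, also come from another locus.

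**Figure D4:**
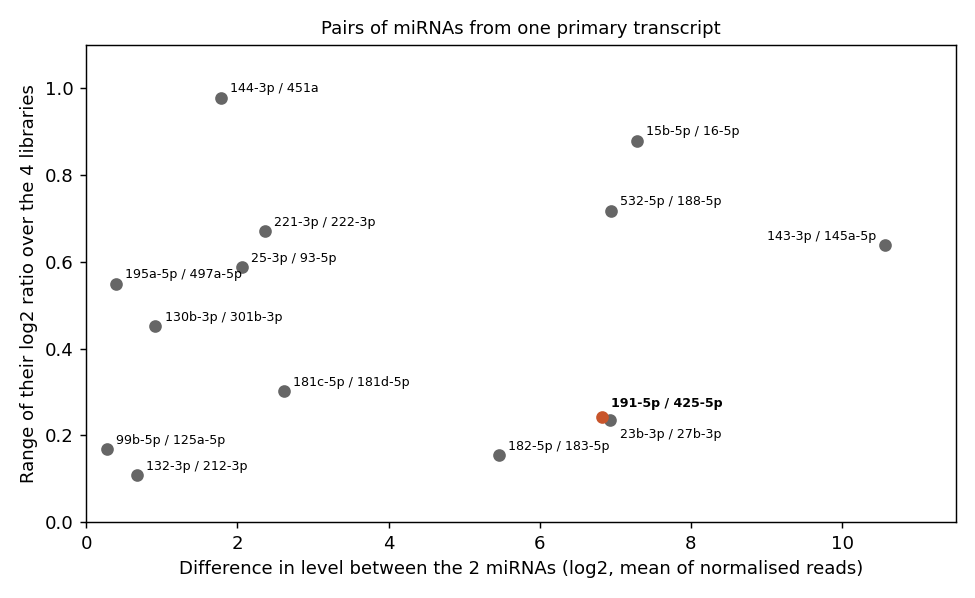
Pairs of miRNAs from one primary transcript. The x axis is the log2 difference between the mean normalised reads of the 2 miRNAs, and the y axis is the range of their log2 ratio over the 4 libraries. The colored point, miR-191-5p and miR-425-5p, combines a large difference in level (6.83) with a narrow range (0.24), as does the pair of miR-23b-3p and miR-27b-3p (6.94 and 0.24).

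miR-191-5p and miR-425-5p are both among the miRNAs commonly used to normalise small RNA assays, so they were compared with 11 others of that use. On the scale of log2 normalised reads, miR-425-5p ranged over 0.25 across the 4 libraries and took place 4 of 13 from the steadiest, and miR-191-5p ranged over 0.34 and took place 8. The steadiest was miR-26a-5p with a range of 0.11, and the least steady were let-7a-5p with 0.68 and miR-24-3p with 1.01. The members of the list had a median log2 ratio of CUMS to control of 0.01, and 7 of 13 had a higher mean in CUMS. miR-191-5p and miR-425-5p were the 2 of 13 whose CUMS libraries both exceeded both control libraries. This order was as common over all miRNAs, at 16.7% of 719 and 17.7% of the 158 with at least 1000 reads in every library. With CPM of all miRNA reads the number was 4, with miR-26a-5p and miR-361-5p added, and with CPM outside the epithelial arms it was 1, miR-191-5p. CUMS was therefore above control for miR-191-5p on each of these scales, whereas for miR-425-5p the groups overlapped on the last one.

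**Figure D5:**
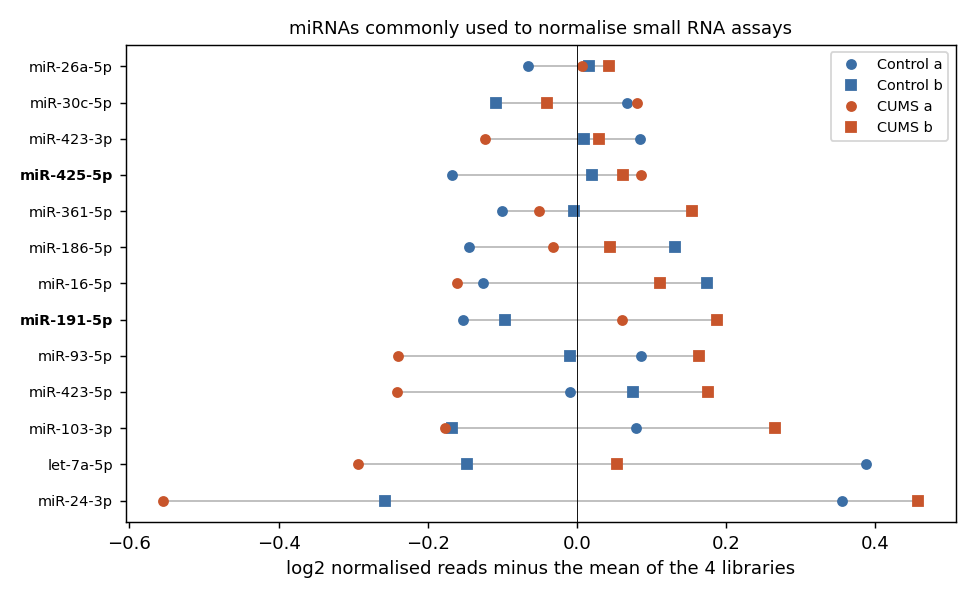
Reference miRNAs, each as log2 normalised reads minus its mean over the 4 libraries, ordered by range. Points are control and CUMS libraries a and b. For miR-191-5p both CUMS points lie to the right of both control points, with a range of 0.34, and for miR-26a-5p the range is 0.11.

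Among the 157 other miRNAs with at least 1000 reads in every library, the one whose profile over the 4 libraries was nearest to miR-191-5p was miR-151-5p. The root mean square difference of their centred log2 values was 0.02, against a median of 0.17 over the 157. miR-151-5p had 33202 and 34667 reads in the controls against 40953 and 39128 under CUMS. miR-540-3p and miR-132-3p followed, at 0.05 and 0.06. For miR-425-5p the nearest of 158 was miR-151-3p, the other arm of that hairpin, at 0.03, followed by miR-30c-2-3p and miR-409-5p, both at 0.04. The difference between miR-425-5p and its neighbour miR-191-5p was 0.09, which put miR-191-5p at place 24 of the 158. These are descriptions over 4 libraries, and the miRNAs share the depth and scaling of each library.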

How the data were processed

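The authors matched clean reads of 18-25 nt to the mouse precursors of miRBase without mismatch, counted them per mature miRNA and compared the groups with DESeq. Bowtie, DESeq and build mm10 are named in the submitters' processing notes, and their versions for the small RNA reads are not given in the sources used here. What the authors deposited as signal is, for each group, a mean of normalised read counts, with reads divided by size factors. The ratio or fold between groups, its log2 value and the p-values that the authors deposited were not used. The columns name no group, and were assigned to control and CUMS because the study prints their values under these headings.

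A group mean is a sum of whole reads in 2 libraries, each times its own step. Whole reads were found for 100% of the 1038 values in each group (relative residual below 1e-09). That limit is loose for large values, where some pair of numbers comes as close by itself. The largest relative residual was 4.83e-15 in control and 4.52e-15 in CUMS. For 2 control values the next best pair of numbers came within 10 times the residual. In 10 simulated columns, 100% of 1000 values each were recovered, and size factors computed anew from the reads equalled those in the steps. Libraries of a group are unnumbered replicates.

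The deposited group means give a ratio but no test. Exact permutation tests over libraries and count tests were made on the recovered reads. The count tests were edgeR 4.0.16 (quasi-likelihood, TMM, at least 5 reads in a library) and DESeq2 1.42.0 (Wald) under R 4.3.3, with group as the only factor and Benjamini-Hochberg adjustment, both tested on simulated data. Python 3.11.15 was used for the rest (scipy 1.17.1, pandas 2.3.3, numpy 2.4.6, and matplotlib 3.10.9 for plots). Intervals and floors (3 reads, 0.278 to 0.313 CPM) cover counting error only. Permutation p-values rest on the values of an arm or ratio in these libraries only. Those of edgeR and DESeq2 use a spread between these libraries that is estimated with the help of other miRNAs. Named miRNAs are the 4 arms, the 3 nearest to each guide arm, the lists of reference miRNAs, transcript pairs and cell type markers, and miRNAs with the seed of an arm. The arms and lists were chosen with earlier results of these data known. Alternatives were other scalings, 1 added to both means, both tests, other minimum means and leaving out each library. The muscle marker miR-206-3p is not a row of the table. Genes came from RefSeq on GRCm38.p6 and GENCODE M21 on GRCm38, which share the coordinates of mm10.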

Additional observations from a re-analysis of the deposited data

How the results depend on the processing

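The log2 ratio of CUMS to control stayed above 0 for miR-191-5p, miR-191-3p and miR-425-5p under all alternatives run. With CPM of all miRNA reads, it moved by more than the spread between libraries for miR-191-5p, to 0.33, and for miR-191-3p, to 0.16. The epithelial reads of control library b enter these totals. With single libraries left out, the ratio ran from 0.18 to 0.31 for miR-191-5p, from 0.0067 to 0.15 for miR-191-3p, from 0.054 to 0.24 for miR-425-5p and from -0.32 to 0.52 for miR-425-3p, whose direction turned without control library b and without CUMS library b. The ratios of arms and of miR-191-5p to miR-425-5p moved by less than the spread between libraries under all alternatives run. The number of miRNAs past 1.5-fold was 161, or 29 with a minimum mean of 50 and 283 with none, and from 176 to 215 with a library left out. Without control library a, the lone control was library b with its epithelial reads, and a group of 1 library has no spread of its own. The log2 ratio was then 0.22 for miR-191-5p, 0.0067 for miR-191-3p, 0.054 for miR-425-5p and 0.36 for miR-425-3p. No paired analysis was possible because the group means carry no replicate numbers. With 42 to 67 reads, depth limits what can be said of miR-425-3p.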
